A study of Mus musculus with 8 samples.

Results

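The genes described here are 10 subunits, inhibitors and regulators of the transcription factor NF-kB in mouse regulatory T (Treg) cells. They were taken by symbol from 52459 listed genes, as the transcription factor subunits Rel, Rela, Relb, Nfkb1 and Nfkb2, the classical inhibitors Nfkbia and Nfkbie, the atypical inhibitor family members Nfkbid and Bcl3, and the ubiquitin-editing enzyme Tnfaip3. All 10 were among the 15419 genes whose mean reached 10 normalized counts, and none was lost to this filter. The study sequenced messenger RNA of Treg cells that were wild-type (WT) or lacked the calcium sensors Stim1 and Stim2 (DKO), either unstimulated or stimulated for 16 h with antibodies to CD3 and CD28. It asked how calcium entry through this pathway shapes the transcriptome of Treg cells.

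All cells were CD4+CD25hi Treg cells sorted from spleen and lymph nodes of C57BL/6 mice. The labels give the DKO cells floxed alleles of both genes (Stim1 fl/f and Stim2 fl/fll) together with Foxp3-YFPcre, in which the Foxp3 promoter drives a Cre recombinase with a yellow fluorescent protein. The methods describe WT cells without YFPcre and DKO cells with it, both from heterozygous females of this floxed Foxp3-YFPcre strain. Expression of the Cre allele therefore cannot be told apart from the deletion. By that account the WT cells came from mice with the floxed alleles too. Whether WT and DKO pools were sorted from the same mice is not stated. Stimulation was given by plate-bound antibody at 1 µg/ml in culture, and the unstimulated cells received none. Each of the 4 groups had 2 libraries, and each library was made from cells pooled over several mice. The p-values thus measure the spread between such pools. Unstimulated libraries ran on lane 4 and stimulated libraries on lane 1, so stimulation and lane cannot be told apart, while both genotypes lie within each lane. The study says only that unstimulated cells were left untreated, and whether they were cultured for 16 h is not given. Time in culture may therefore differ as well and cannot be told apart from stimulation. Ages of the mice are not given in the labels.

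NF-kB is a family of dimeric transcription factors that inhibitor proteins hold in the cytoplasm until a signal from the T cell receptor, a costimulator or a cytokine receptor leads to the inhibitors' destruction. Several inhibitor genes are themselves NF-kB targets, which makes the pathway a negative feedback loop. In Treg cells, c-Rel (encoded by Rel) is known for its part in the induction of Foxp3, and Rela and Rel together for the maintenance of Treg cell function.

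The kB consensus, the DNA motif that NF-kB dimers bind, was searched on both strands of the RefSeq promoter windows (GRCm38.p6), which run from 250 bases before to 50 bases after a gene start. The table held windows for 8 of the 10 genes and none for Relb and Nfkb1. The motif was found for 7 of these 8 genes, against 9.55% of the 27025 genes with a window, and for Rela no match was found. For Bcl3 the match lay after the start and is not printed. Stretches with matches are shown because subunit and inhibitor genes of the family are textbook NF-kB targets, and one further match of Nfkb2 is left out. They are written 5′ to 3′ on the gene's strand with capitals for bases of a match, and overlapping matches run together. A match is a description of letters and no test of binding.
Rel (chr11:23771031-23771081, minus strand): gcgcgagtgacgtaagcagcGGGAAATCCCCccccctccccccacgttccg
Nfkb2 (chr19:46304678-46304736, plus strand): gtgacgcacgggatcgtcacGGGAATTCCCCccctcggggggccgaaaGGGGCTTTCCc
Nfkb2, a start further downstream (chr19:46305685-46305734, plus strand): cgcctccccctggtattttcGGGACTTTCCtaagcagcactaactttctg
Nfkbia (chr12:55492648-55492696, minus strand): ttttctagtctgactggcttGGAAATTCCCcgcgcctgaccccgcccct
Nfkbie (chr17:45555574-45555623, plus strand): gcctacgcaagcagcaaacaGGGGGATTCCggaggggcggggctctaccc
Nfkbid (chr7:30422160-30422254, plus strand): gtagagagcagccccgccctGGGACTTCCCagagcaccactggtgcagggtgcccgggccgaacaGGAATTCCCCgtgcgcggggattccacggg
Tnfaip3 (chr10:19015411-19015555, minus strand): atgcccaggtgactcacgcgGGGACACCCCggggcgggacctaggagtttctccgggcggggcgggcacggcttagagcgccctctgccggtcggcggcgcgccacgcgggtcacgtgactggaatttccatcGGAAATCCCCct
The match of Nfkbia began 29 bases before the gene start and that of Nfkbie 106 bases before it. Tnfaip3 held matches 125 and 12 bases before one of its starts, and Rel held 2 overlapping matches 92 and 91 bases before its start.

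Between 11851853 and 16306540 reads per library were counted on genes, and a member had 122 to 61418 reads in a library. One read equalled 0.759 to 1.48 of the authors' normalized counts (reads per gene divided by 1 size factor per library). The deleted genes did not separate the labels. Normalized counts of Stim1 without stimulation were 1139 and 1377 in WT and 1538 and 1868 in labelled DKO libraries (log2 fold change 0.44, limma adjusted p = 0.236), and 645 and 673 against 552 and 642 after stimulation (-0.15, limma adjusted p = 0.807). Stim2 had 906 and 908 against 904 and 744 in unstimulated cells (-0.15, limma adjusted p = 0.721), and 665 and 782 against 620.2 and 696 after stimulation (-0.13, limma adjusted p = 0.827). Counts per gene do not show whether single exons are missing, and every direction below is that of libraries labelled DKO. The study itself reported loss of Stim1 and Stim2 expression by RT-PCR in Treg cells of male mice. It also reported that YFP-positive Treg cells of heterozygous females lacked the calcium entry that depends on these genes.

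In unstimulated cells, Rel, Relb and Nfkb2 had the lowest levels in labelled DKO libraries relative to WT, at 0.385, 0.413 and 0.497 times the WT level. None of the 10 genes met the rule for a call in limma (adjusted p below 0.05 by Benjamini-Hochberg, and more than 1.5-fold), which 4.73% of all tested genes met. At an unadjusted p under 0.05 and over 1.5-fold, 5 members were lower (Rel, Relb, Nfkb2, Nfkbia and Nfkbie), beside 11.1% of all tested genes. Both labelled libraries lay below both WT libraries for 6 members, the same 5 and Bcl3, beside 27.1% of all tested genes. The log2 fold change was below 0 for 9 of 10 members with a median of -0.62, against -0.01 over all tested genes.

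**Figure D1:**
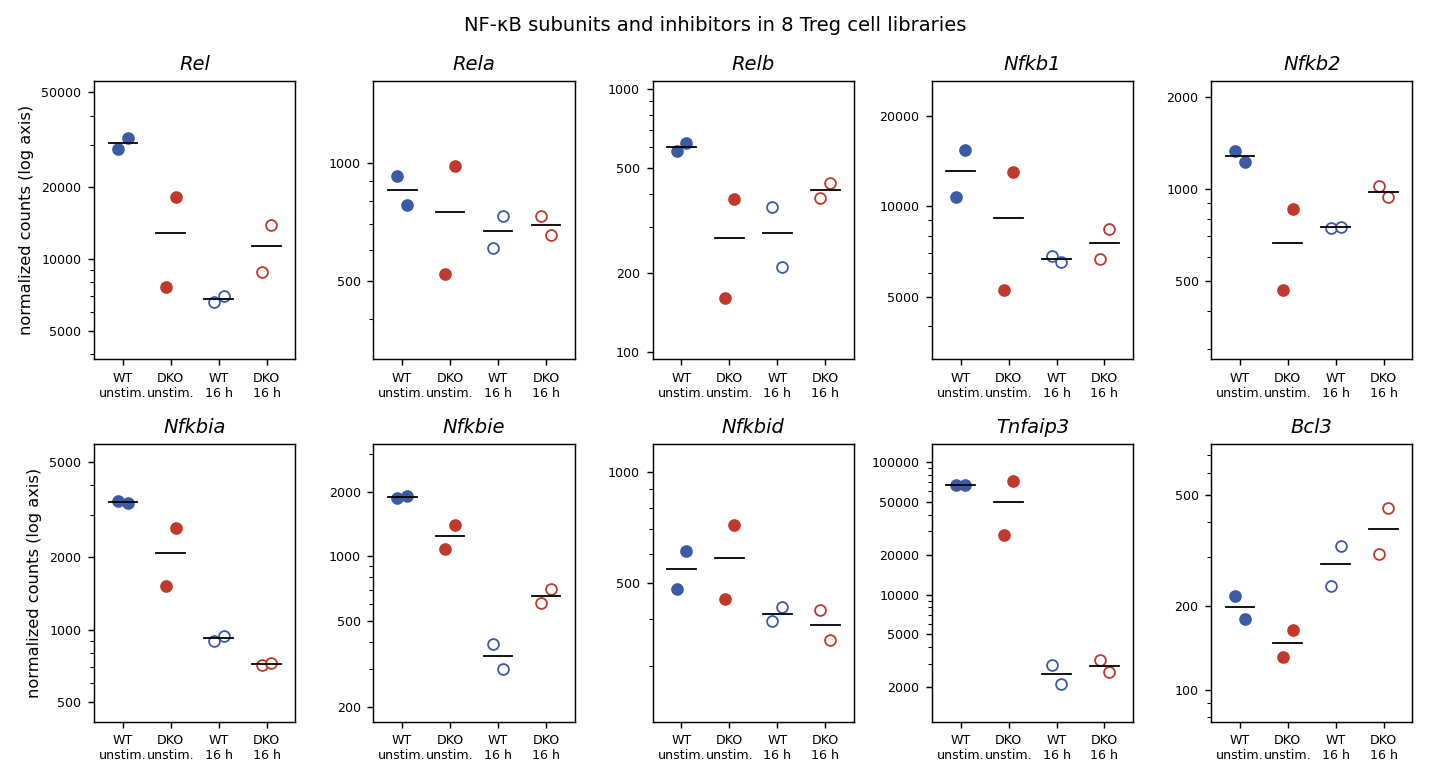
Normalized counts (log axis, scaled to each gene) of the 10 NF-kB genes in 8 libraries, by group. Circles are libraries, filled for unstimulated and open for stimulated cells, blue for WT and red for those labelled DKO, and bars are means of 2 libraries. Rel sat at 28959 and 32216 in unstimulated WT libraries and at 6611 to 18158 in the other 6, and Tnfaip3 dropped from at least 27892 to at most 3219 in stimulated cells.

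In normalized counts, Rel, the subunit c-Rel, stood at 28959 and 32216 in WT and at 7622 and 18158 in labelled DKO libraries. Both labelled libraries lay well below both WT libraries but were 2.38-fold apart. The log2 fold change was -1.38 (standard error 0.35, 95% interval -2.16 to -0.59, limma adjusted p = 0.0549). Relb, the subunit of the alternative NF-kB pathway, had 582 and 626 in WT and 161 and 383 in those labelled DKO (-1.27, standard error 0.39, limma adjusted p = 0.0904). Its partner Nfkb2, whose precursor is cleaved to give the active subunit, had 1335 and 1229 against 469.8 and 863 (-1.01, standard error 0.26, limma adjusted p = 0.0602). DESeq2 on the recovered reads called all 3 lower, with adjusted p of 0.00607 for Rel, 0.0440 for Relb and 0.0215 for Nfkb2. That fit called 817 of 15419 tested genes lower. In these 3 genes the groups did not overlap, and the labelled libraries were more spread than the WT libraries. Rel and Relb were among genes the study itself displayed from these libraries, so their direction is not independent evidence.

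Nfkb1, the precursor of the most common partner of Rela and c-Rel, ranged from 10710 to 15423 normalized counts in WT and from 5262 to 13028 in labelled libraries, and the groups overlapped. Its log2 fold change was -0.63 (95% interval -1.43 to 0.16, limma adjusted p = 0.331). Rela, the main activating subunit in most cells, also overlapped, with 927 and 781 against 521 and 982, a log2 fold change of -0.25 (95% interval -0.89 to 0.38, limma adjusted p = 0.658). These intervals include 0 as well as reductions beyond 1.5-fold.

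Among the inhibitors, Nfkbia, which encodes IkB-alpha, the first inhibitor to be degraded and resynthesised, had 3448 and 3383 normalized counts in WT against 1515 and 2660 in labelled libraries (log2 fold change -0.77, standard error 0.25, limma adjusted p = 0.104). Nfkbie, which encodes IkB-epsilon, had 1870.2 and 1904 against 1086 and 1405 (-0.61, standard error 0.22, limma adjusted p = 0.138). For both, every labelled library was below every WT library. Tnfaip3, which encodes A20 and ends signalling at the receptor complexes, had 66279 and 67129 in WT libraries against 27892 and 71529, so that one labelled library was far below WT and the other above it (-0.58, 95% interval -1.38 to 0.23, limma adjusted p = 0.387). Bcl3, a nuclear family member that binds Nfkb1 and Nfkb2 products, had 217 and 180.2 against 131 and 164 (-0.43, limma adjusted p = 0.437). Nfkbid, another nuclear member known for its part in Foxp3 induction, had 482 and 612 against 455 and 717 (0.07, 95% interval -0.51 to 0.66, limma adjusted p = 0.907) and was the sole member with a value above 0.

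The 2 labelled unstimulated libraries differed from each other in the same direction for all 10 members, each being 1.25-fold (Bcl3) to 2.56-fold (Tnfaip3) higher in replicate 2 than in replicate 1, while 47.8% of all tested genes were higher in replicate 2. Without replicate 2, limma called 6 members lower (Rel, Relb, Nfkb1, Nfkb2, Nfkbia and Tnfaip3), and without replicate 1 it called 0, with log2 fold changes of -0.75 for Rel, 0.02 for Nfkb1 and 0.10 for Tnfaip3. The same libraries differed in transcripts of other cells. Transcripts of 14 macrophage and monocyte markers summed to 517 to 540 normalized counts in unstimulated WT libraries, with 2 markers at 0 (C1qa and C1qc), and to 11821 and 1883 in labelled replicates 1 and 2, with 9 of the 14 called higher. Sums of 12 B cell markers were 396 to 480.1 in WT and 5088 and 1166 in labelled libraries, with Cr2 called higher. Those of dendritic cells were 253 to 284 against 256 to 752, of CD8 T and NK cells 281 to 335 against 307 to 913, of neutrophils 127 to 234 against 491 to 1079, and of erythroid cells 32.4 to 68.0 against 85.5 to 217. The 10 genes of Treg and T cell identity, Foxp3 and Cd4 among them, were detected in every library. They summed to 95762 to 103060 in WT against 47669 to 55547 in labelled libraries, with a median log2 fold change of -0.53 and 3 called lower (Ctla4, Tnfrsf18 and Ikzf2). Much of this sum was Ctla4 (means of 36261 and 11835) and Ikzf2 (19330 and 8815). The T cell genes Cd3d, Cd3e, Cd3g, Trac and Cd4 had log2 fold changes of -0.36, -0.12, -0.36, -0.42 and -0.20 and were not called. The part of these transcripts in the lower NF-kB values was not tested, and fewer cells of a type cannot be told apart from less RNA per cell in bulk libraries.

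After 16 h of stimulation, the genotype effect on the same genes was mostly above 0, and Nfkbie was the member furthest from it, at 1.92 times the WT level. None of the 10 genes was called in limma, beside 0.272% of all tested genes. Values were above 0 for 8 members and below 0 for 2 (Nfkbia and Nfkbid), with a median log2 fold change of 0.30 against 0.02 over all tested genes. For 4 members, Rel, Relb, Nfkb2 and Nfkbie, the labelled libraries exceeded both WT libraries, beside 24.3% of all tested genes.

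Nfkbie had 390 and 299 normalized counts in stimulated WT libraries and 607 and 709 in those labelled DKO (log2 fold change 0.94, standard error 0.22, 95% interval 0.45 to 1.42, limma adjusted p = 0.0956). DESeq2 on the recovered reads called it higher, with an adjusted p of 0.0119, in a fit that called 251 of 15419 tested genes higher. Rel had 6611 and 6992 against 8820 and 13895 (0.70, 95% interval -0.08 to 1.49, limma adjusted p = 0.420). For Rel, both labelled libraries lay above WT, and replicate 2 was 1.58-fold above replicate 1. Relb had 357 and 210.3 against 387 and 438 (0.59, limma adjusted p = 0.562), and Nfkb2 had 747 and 751 against 1020 and 940 (0.39, 95% interval -0.20 to 0.97, limma adjusted p = 0.581).

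The other subunits lay close to WT after stimulation. Nfkb1 had 6844 and 6535 against 6708 and 8444 (log2 fold change 0.17, 95% interval -0.62 to 0.96), and Rela 606 and 731 against 731 and 656 (0.06, 95% interval -0.58 to 0.69). Nfkbia was the one member with 2 labelled libraries under the WT range, with 893 and 945 against 714 and 729 (-0.35, 95% interval -0.89 to 0.20, limma adjusted p = 0.590). Tnfaip3 had 2964 and 2102 against 3219 and 2607 (0.21), Nfkbid 395 and 432 against 422 and 351 (-0.10), and Bcl3 237 and 329 against 309 and 450.0 (0.42, limma adjusted p = 0.596). The intervals of these genes are wide enough to hold changes of 1.5-fold in at least one direction. Macrophage and monocyte markers summed to 242 to 360.1 normalized counts in stimulated WT and 398 to 483 in labelled libraries, B cell markers to 256 to 1301 against 477 to 2022.5, and the Treg and T cell identity genes to 102510 to 121720 against 75836 to 95040. Among these identity genes the log2 fold change was -1.04 for Ctla4 and -0.81 for Ikzf2. It was 0.10 for Cd3d, -0.15 for Cd3e, -0.15 for Cd3g, 0.15 for Trac and -0.08 for Cd4.

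**Figure D2:**
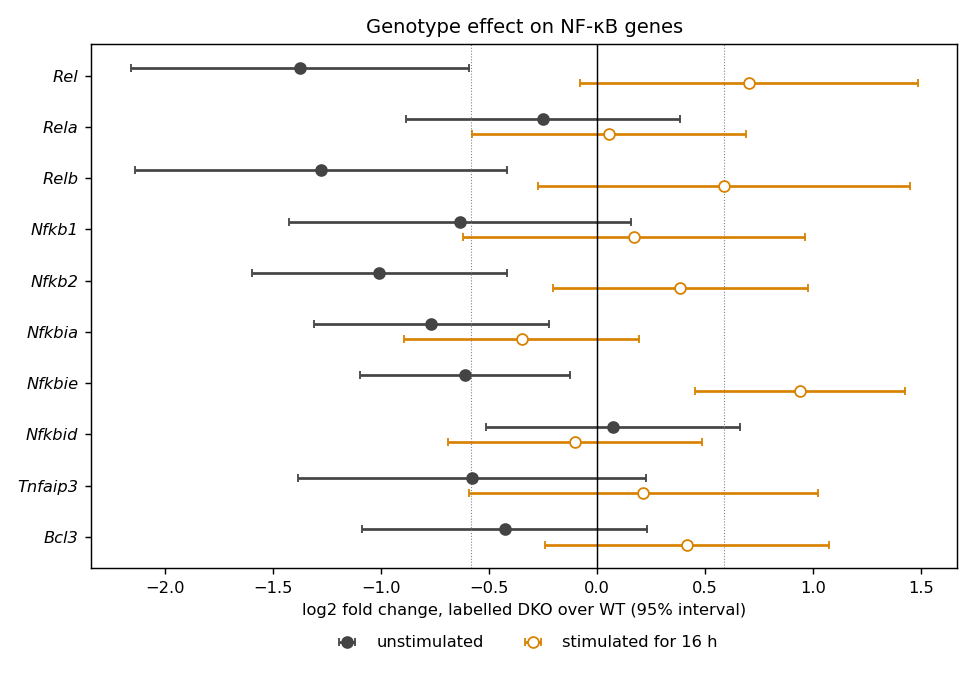
Log2 fold change of libraries labelled DKO over WT for each gene in unstimulated (filled) and stimulated cells (open), with 95% intervals from limma and dotted lines at 1.5-fold. Unstimulated values run from -1.38 (Rel) to 0.07 (Nfkbid) and stimulated values from -0.35 (Nfkbia) to 0.94 (Nfkbie).

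The difference between the genotype effects of the 2 states was therefore computed for each gene as an interaction in the same limma model. No member and 0% of all tested genes passed the adjusted threshold (0 of 15419 genes in limma and 0 in edgeR). DESeq2 called 13 negative and 37 positive differences, and at an unadjusted limma p under 0.05 and over 1.5-fold there were 543 and 704. By the same unadjusted rule, 4 members had a positive difference, beside 4.57% of all tested genes. They were Nfkbie (1.55, standard error 0.31, limma adjusted p = 0.413), Rel (2.08, standard error 0.50, limma adjusted p = 0.556), Nfkb2 (1.39, standard error 0.37, limma adjusted p = 0.556) and Relb (1.86, standard error 0.55, limma adjusted p = 0.556). The same 4 genes lay below both WT libraries before and above both after stimulation in every labelled library, a crossing found for 2.77% of all tested genes. DESeq2 called Rel and Nfkbie. Over the 13 alternatives to the model the difference ran from 1.45 to 2.71 for Rel and from 1.24 to 2.48 for Relb. It ran from 0.95 to 1.83 for Nfkb2 and from 1.36 to 1.74 for Nfkbie. For the other 6 members the difference ran from -0.17 (Nfkbid) to 0.84 (Bcl3), with intervals that include 0.

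**Figure D3:**
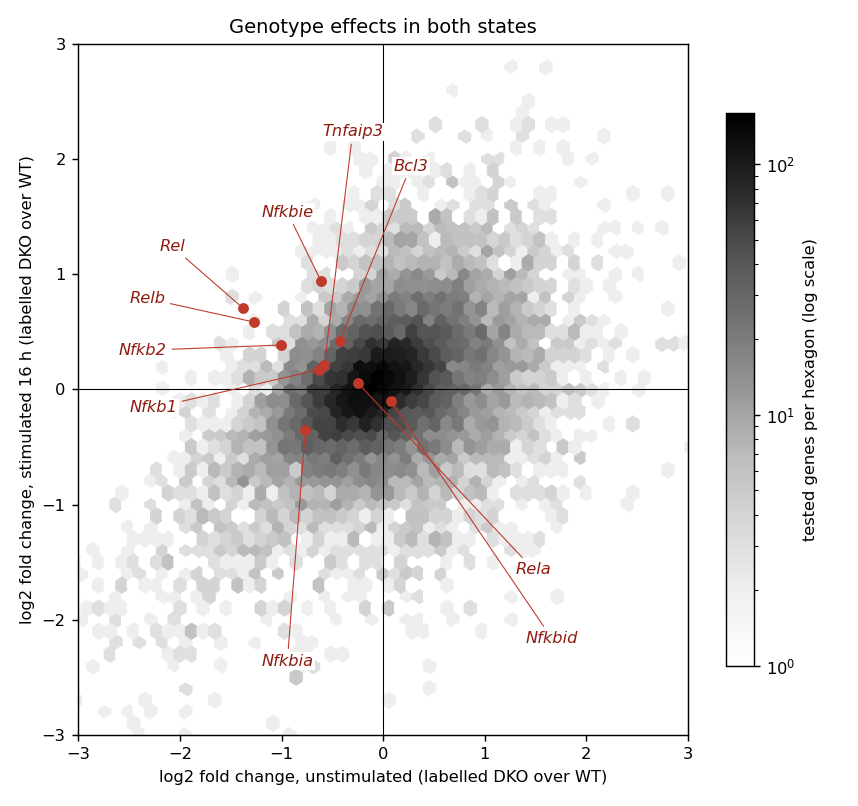
Genotype effect (log2 fold change, labelled DKO over WT) in unstimulated cells on the x axis and stimulated cells on the y axis, for the 10 NF-kB genes (red) and all tested genes (grey hexagons, counted on a log scale). Axes are limited to between -3 and 3. Rel (-1.38, 0.70), Relb (-1.27, 0.59), Nfkb2 (-1.01, 0.39) and Nfkbie (-0.61, 0.94) sit in the upper left, outside the dense centre.

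Stimulated WT cells had lower levels of most NF-kB genes than unstimulated WT cells, on lane 1 against lane 4. Time in culture may also differ between these groups, and its part was not tested. Limma called 4 members, all lower (Tnfaip3, Nfkbie, Rel and Nfkbia), beside 23.3% of all tested genes called either way, 13.1% called lower and 10.2% called higher. Both stimulated libraries lay below both unstimulated libraries for 9 members, beside 36.0% of all tested genes, and Bcl3 lay above, with 237 and 329 against 217 and 180.2 normalized counts. The median log2 fold change of the members was -1.04 against 0.01 over all tested genes.

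Tnfaip3 fell 26.7-fold in WT cells, from 66279 and 67129 to 2964 and 2102 normalized counts (log2 fold change -4.74, standard error 0.36, limma adjusted p = 0.000118). Nfkbie fell 5.51-fold (-2.46, standard error 0.22, limma adjusted p = 0.000233), Rel 4.49-fold (-2.17, standard error 0.35, limma adjusted p = 0.00304) and Nfkbia 3.72-fold (-1.89, standard error 0.25, limma adjusted p = 0.00126). These 4 genes were called under all 10 alternatives to the model. Relb (-1.14, limma adjusted p = 0.0577), Nfkb2 (-0.77, limma adjusted p = 0.0588) and Nfkb1 (-0.94, limma adjusted p = 0.0807) missed the threshold. DESeq2 called all 3 lower, as did limma on the 4 WT libraries alone, and limma on libraries scaled to equal upper quartiles called Relb and Nfkb2. Of 15419 tested genes these fits called 2256, 2746 and 2389 lower, in that order. Rela (-0.35), Nfkbid (-0.39) and Bcl3 (0.50) were called by neither limma nor DESeq2, with limma adjusted p of 0.250 to 0.396.

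In libraries labelled DKO, limma called 3 members lower with stimulation (Tnfaip3, Nfkbia and Nfkbie), beside 12.0% of all tested genes, and 1 higher (Bcl3), beside 13.0% (25.0% either way). Tnfaip3 fell 15.4-fold, from 27892 and 71529 to 3219 and 2607 normalized counts (log2 fold change -3.95, standard error 0.36, limma adjusted p = 0.000243). Nfkbia fell 2.78-fold (-1.48, standard error 0.25, limma adjusted p = 0.00282) and Nfkbie 1.88-fold (-0.91, standard error 0.22, limma adjusted p = 0.0138). Bcl3 rose 2.53-fold, from 131 and 164 to 309 and 450.0 (1.34, standard error 0.30, limma adjusted p = 0.00997). Without stimulated labelled replicate 2 the call for Bcl3 was lost (limma adjusted p = 0.0645), and the call for Nfkbie was lost without stimulated labelled replicate 1, without unstimulated labelled replicate 2 and with the 4 libraries of the contrast alone.

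Rel and the other subunits were not called in labelled libraries. Rel had 7622 and 18158 normalized counts without and 8820 and 13895 with stimulation (log2 fold change -0.09, 95% interval -0.87 to 0.69), the stimulated libraries lying between the unstimulated ones. Its difference from the WT effect of -2.17 is the interaction of 2.08 given above, since both are the same 8 libraries. Relb (0.72, limma adjusted p = 0.193) and Nfkb2 (0.62, 95% interval 0.03 to 1.21, limma adjusted p = 0.112) were above their unstimulated levels in both stimulated libraries. Nfkb1 (-0.14), Rela (-0.05) and Nfkbid (-0.57, limma adjusted p = 0.140) were not called. The result depended on the unstimulated libraries. Over the alternatives the log2 fold change ran from -0.71 to 0.54 for Rel, -0.79 to 0.52 for Nfkb1 and -0.90 to -0.24 for Nfkbid. It ran from 0.10 to 1.34 for Relb and from 0.18 to 1.06 for Nfkb2. Both stimulated libraries lay below both unstimulated ones for 4 members, Tnfaip3, Nfkbia, Nfkbie and Nfkbid, beside 30.6% of all tested genes. Macrophage and monocyte markers moved with this comparison, 11 of 14 being called lower with stimulation, and their part in it was not tested.

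**Figure D4:**
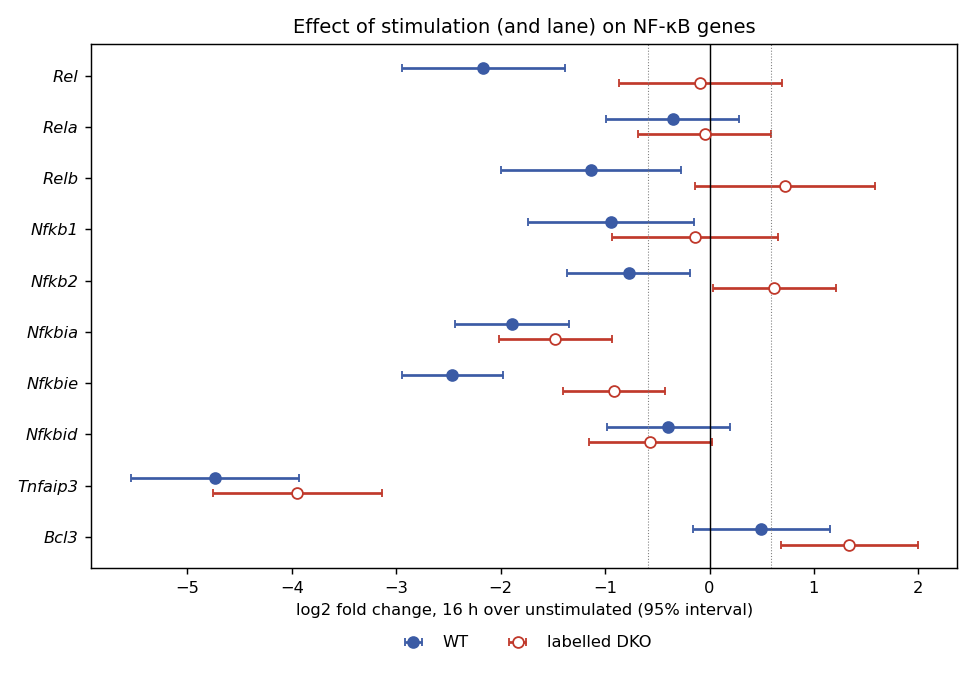
Log2 fold change of stimulated over unstimulated libraries in WT (filled) and labelled DKO cells (open). Bars are 95% intervals from limma, and dotted lines mark 1.5-fold. Stimulation and sequencing lane coincide, and time in culture may differ too. Tnfaip3 lies at -4.74 and -3.95, Rel at -2.17 in WT and -0.09 in labelled DKO cells, and Bcl3 at 0.50 and 1.34.

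To set the genes beside each other, normalized counts were divided by exon length in kilobases (GENCODE vM1), an annotation that may not be the one used for counting, so the order between genes depends on these lengths. In unstimulated WT libraries Rel stood first with a mean of 10928 normalized counts per kilobase, followed by Tnfaip3 (9231), Nfkb1 (2726), Nfkbia (2166), Nfkbie (779), Nfkb2 (390), Rela (315), Nfkbid (233), Relb (155) and Bcl3 (79.9), with no overlap between neighbours. In unstimulated labelled libraries Tnfaip3 (3860 to 9899) and Rel (2723 to 6487) overlapped, as did Nfkb1 with Nfkbia, Rela with Nfkbid and Nfkbid with Nfkb2, and Relb with Bcl3. After stimulation Rel remained first in both genotypes (means of 2430 in WT and 4058 in labelled libraries), Nfkb1 next, then Nfkbia and then Tnfaip3 (351 and 403). Rela, Nfkb2, Nfkbid, Nfkbie, Bcl3 and Relb took the lower places in both, Relb being last at 72.9 and 106. The neighbours that overlapped were Rela with Nfkb2 and Nfkbie with Bcl3 in WT, and Nfkb2 with Nfkbie, Nfkbie with Rela and Nfkbid with Bcl3 in labelled libraries.

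Within the 5 subunits, the per-kilobase share of Rel was highest in unstimulated WT libraries, at 76.8% and 74.0%. It was 64.9% and 65.3% in unstimulated labelled libraries, 54.5% and 56.6% in stimulated WT libraries, and 60.3% and 67.4% in stimulated labelled libraries. The ratio of Rel to Rela per kilobase was 30.3 and 40.0 in unstimulated WT libraries and 14.2 and 17.9 in labelled libraries. After stimulation it was 10.6 and 9.28 in WT and 11.7 and 20.6 in labelled libraries. Another exon length would multiply all 8 ratios alike and leave their order as it is, and such ratios within a library do not depend on the size factors. The 2 unstimulated labelled libraries, which were 2.38-fold apart in Rel, thus had nearly the same share of Rel.

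Across the rest of the pathway, the receptors that signal to NF-kB held several called genes in unstimulated cells. Of 13 tested receptors, limma called 6 lower and 0 higher in labelled libraries, beside 3.35% and 1.38% of all tested genes, with a median log2 fold change of -0.86. They included the interleukin-33 receptor Il1rl1 (mean of 1720 in WT and 94.6 in labelled libraries, log2 fold change -4.34, limma adjusted p = 0.0179), Tnfrsf8, which encodes CD30 (230 and 12.2, -4.14, limma adjusted p = 0.0113), Tnfrsf9, which encodes 4-1BB (3035 and 358, -3.08, limma adjusted p = 0.000125), and Tnfrsf4, which encodes OX40 (2812 and 819, -1.93, limma adjusted p = 0.0181). The other two were Tnfrsf1b and Tnfrsf18. After stimulation, 2 of the 13 were called lower, beside 0.110% of all tested genes, Tnfrsf8 (-4.17, limma adjusted p = 0.0392) and Tnfrsf9 (-1.36, limma adjusted p = 0.0356), and the median was -0.56. The study itself names Tnfrsf4, Tnfrsf9, Tnfrsf18 and Il1rl1 from these libraries, so their direction is not independent evidence. Both calls in stimulated cells were lost without the filter on low values, in edgeR, with the 4 libraries alone and without WT replicate 1, WT replicate 2 or labelled replicate 2. In unstimulated cells, leaving out WT replicate 3 or 4 lost the calls for Il1rl1, Tnfrsf8 and Tnfrsf4, and that for Tnfrsf9 held under each alternative.

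Of 27 tested textbook NF-kB target genes, 5 were called lower and 0 higher in unstimulated labelled libraries (3.35% and 1.38% of all tested genes), with a median log2 fold change of -0.81. These were the chemokine Cxcl10 (means of 1569 and 207 normalized counts, -2.92, limma adjusted p = 0.00409), the activation marker Cd83 (2828.5 and 382, -2.91, limma adjusted p = 0.00231), the transcription factor Irf4 (3520.4 and 946, -1.90, limma adjusted p = 0.0088), the survival gene Bcl2l1 (842 and 265, -1.71, limma adjusted p = 0.0110) and the adhesion receptor Cd44, which was named after its value was seen (-1.32, limma adjusted p = 0.0485). Irf4 is also named by the study from these libraries, so its direction is not independent evidence either. Without WT replicate 3 the calls for Cxcl10, Cd83, Irf4 and Bcl2l1 were lost, and without WT replicate 4 those for Cxcl10, Irf4 and Bcl2l1. In stimulated cells limma called 0 of the 27, at a median of -0.13. With stimulation, 10 of the 27 rose and 5 fell in WT cells (10.2% and 13.1% of all tested genes), and 15 rose and 2 fell in labelled libraries (13.0% and 12.0%). Among those that rose in both were the cytokine gene Il2 (means of 17.5 to 1120 normalized counts in WT, and 12.0 to 1257 in labelled libraries), the chemokine genes Ccl3 (11.5 to 591 and 65.5 to 738) and Ccl4 (0.54 to 272 and 13.2 to 384), and the growth factor gene Csf2 (1.82 to 70.2 and 0.53 to 40.4). These means hide wide spreads between stimulated libraries. Il2 had 1470 and 771 in WT replicates 1 and 2, and 2248 and 266 in labelled ones. Ccl3 had 917 and 264 against 1189 and 287, and Ccl4 had 422 and 121 against 661 and 108. For Csf2 the values were 88.1 and 52.4 against 71.5 and 9.29.

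The kinases and adaptors between the receptors and NF-kB held few genotype calls. In the CBM complex with its kinase, 4 genes in all, limma called Malt1, the protease, lower (means of 7255 and 4138 normalized counts, log2 fold change -0.81, limma adjusted p = 0.0465) and Prkcq, the kinase that starts its assembly, higher (3135 and 6031, 0.94, limma adjusted p = 0.0252) in unstimulated labelled libraries, and none in stimulated ones. The call for Malt1 was lost under 7 of 10 alternatives, among them edgeR and leaving out WT replicate 3, WT replicate 4 or labelled replicate 1, and that for Prkcq under 4, leaving out either WT replicate among them. With stimulation, Bcl10 and Prkcq fell in both genotypes, by 0.79 to 1.82 on the log2 scale. Among 11 IKK and upstream kinases none was called in unstimulated cells, and Map3k8, which acts with the Nfkb1 precursor, was called higher in stimulated labelled libraries (means of 497 and 1250.1, 1.31, limma adjusted p = 0.0432), beside 0.162% of all tested genes. This call was lost under 6 of 11 alternatives, among them edgeR and leaving out WT replicate 1, WT replicate 2 or labelled replicate 2. It fell with stimulation in WT cells (-0.69, limma adjusted p = 0.0397) and rose in labelled libraries (0.77, limma adjusted p = 0.0238), where the WT call was lost with any 1 WT library left out, and the labelled call without replicate 2 of either state. Of 12 adaptors and ubiquitin ligases none was called between genotypes in either state, and of 15 other inhibitors and deubiquitinases N4bp1 alone was called lower, in unstimulated cells (4137 and 1602, -1.37, limma adjusted p = 0.00513), a call lost without WT replicate 3 or 4. The inhibitors Tnip1 and Zc3h12a fell with stimulation in both genotypes, by 1.23 to 1.85 on the log2 scale, and Tnip3 rose. Among adaptors, Birc2 fell and Traf6 and Rbck1 rose in both. Leaving out 1 library lost at least one of the stimulation calls for Prkcq, Bcl10, Birc2, Traf6, Rbck1, Tnip1, Tnip3, Csf2, Ccl3 and Ccl4.

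**Figure D5:**
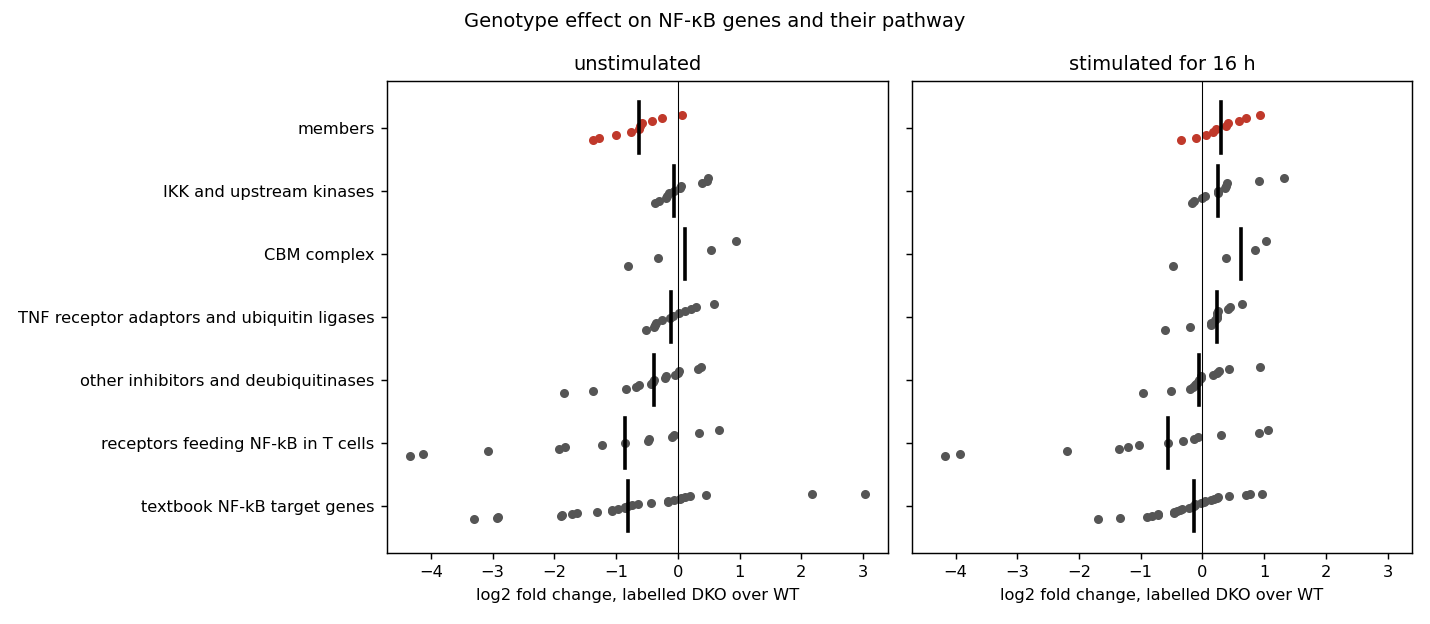
Log2 fold change of libraries labelled DKO over WT in unstimulated (left) and stimulated cells (right). Each point is a gene, red for the 10 NF-kB genes and grey for the pathway lists, and vertical bars are medians. The unstimulated medians are -0.62 for the 10 genes, -0.86 for receptors and -0.81 for target genes, and -0.06 for the IKK and upstream kinases.

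The genes whose log2 values followed each member most closely over the 8 libraries were taken from the 9147 genes whose mean reached 100 normalized counts, as a description that also reflects depth, lane and cell make-up. Tnfaip3 was followed by Mxd4 and Klf6 (Pearson's r of 0.997 each), and 364 genes exceeded 0.95. Nfkbia was followed by Slc30a1 and Cwc25 (0.995 each), with 198 such genes, and Nfkbie by Serp1 (0.989) and Fbxo33 (0.985), with 68. Rel was followed by Ctdspl2 (0.983) and Stam2 (0.982) with 18 such genes, Nfkb1 by Gabpb1 (0.973) and Pi4k2b (0.966) with 8, Nfkb2 by Ubxn1 (0.971) and Ttc1 (0.967) with 4, Relb by Rheb (0.986) and Cul5 (0.954) with 3, and Rela by Zdhhc5 (0.961) and Smarcd1 (0.960) with 3. Nfkbid was followed by Smc5 (0.985) and Fbxo8 (0.971) with 14 such genes, and Bcl3 by S100a13 (0.978) and Tmem185b (0.976) with 32. Among the members themselves, the highest r were those of Nfkbia with Tnfaip3 (0.957), Relb with Nfkb2 (0.930), Nfkbie with Tnfaip3 (0.930) and Rel with Nfkb1 (0.906). Bcl3 ran opposite to Tnfaip3 (-0.79) and Nfkbia (-0.69).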

How the data were processed

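According to the methods, Bowtie alignment to NCBIM37 was followed by removal of duplicates (Picard) and counting per gene (HTSeq). The submitters' processing notes instead name mm10, STAR 2.7, bcl2fastq 1.8.4 and DESeq2, and which pipeline made the table could not be settled, so no coordinates are given for the measured genes. The deposited signal values are gene counts scaled by the authors, with 1 size factor for each library. Division by the value of 1 read gave whole reads for 100% of values (tolerance 0.02 reads). These are gene counts with no molecular identifiers, and strand use in counting is not given in the sources used here.

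Values were log2-transformed after adding 1, and limma 3.58.1 was run on them (R 4.3.3, trended eBayes, 1 spread for 4 groups) over 15419 genes with a mean of at least 10. A call needed an adjusted p below 0.05 (Benjamini-Hochberg, per contrast, 2-sided) and more than 1.5-fold. Fold changes on this scale slightly understate those of low genes. The alternatives were a pseudocount of 5, no filter, upper-quartile scaling, edgeR 4.0.16 and DESeq2 1.42.0 on recovered reads, the contrast's own 4 libraries, a replicate block and each library left out. DESeq2 is the tool the study used, and limma was run on the values as deposited. The members, pathway lists and marker lists were chosen with earlier results of these data known. From each pathway list the text names up to 4 called genes with the largest change. Promoter windows are from RefSeq (GRCm38.p6) and exon lengths from GENCODE vM1, matched by symbol. Single values of some list genes are not reported here.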

Additional observations from a re-analysis of the deposited data

Results flagged for a closer look

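For 4 of the 10 genes, both libraries labelled DKO lay below both WT libraries in unstimulated cells and above both in stimulated cells, so that the genotype effects of the 2 states pointed in opposite directions. The difference of the effects on the log2 scale (stimulated minus unstimulated) was 2.08 for Rel, 1.86 for Relb, 1.39 for Nfkb2 and 1.55 for Nfkbie. The interaction was tested in limma, where the Benjamini-Hochberg adjusted p was 0.556 for Rel, Relb and Nfkb2 and 0.413 for Nfkbie, and over the 13 alternatives to the model it reached from 0.00918 to 0.999 for Rel, 0.0314 to 0.999 for Relb, 0.0146 to 0.999 for Nfkb2 and 0.0153 to 0.999 for Nfkbie. It was under 0.05 for all 4 without unstimulated labelled replicate 2, and in DESeq2 for Rel and Nfkbie, and under no other alternative. All alternatives kept the sign of these 4 values. The same crossing was found for 2.77% of all tested genes.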

How the results depend on the processing

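Of 550 values of single members under an alternative, 498 kept their direction and their side of the threshold, 31 newly passed it, 4 were lost and 17 changed sign, each of the last with a library left out. For unstimulated genotype effects, limma called 0 members, a pseudocount of 5 called 1 lower (Rel), DESeq2 3 (Rel, Relb and Nfkb2), and leaving out each library 0 to 6. In stimulated cells DESeq2 called 1 higher. For the difference of the effects DESeq2 called 2, and leaving out each library 0 to 5. For stimulation in WT cells, DESeq2 and the 4 libraries alone each called 7 lower. In labelled DKO cells, leaving out each library gave 2 to 6 lower and 0 to 3 higher. The cause of these shifts was not tested.

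Log2 fold changes that changed sign ranged, with each library left out, as follows. In unstimulated cells Rela ran from -0.71 to 0.21, Nfkb1 from -1.29 to 0.0196, Nfkbid from -0.25 to 0.40 and Tnfaip3 from -1.26 to 0.10. In stimulated cells Rela ran from -0.0788 to 0.19, Nfkbid from -0.23 to 0.0320 and Tnfaip3 from -0.0330 to 0.46. Their differences ran from -0.15 to 0.76 for Rela and from -0.50 to 0.15 for Nfkbid. With stimulation in labelled DKO cells, Rel ran from -0.71 to 0.54, Rela from -0.50 to 0.41 and Nfkb1 from -0.79 to 0.52.

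Over the alternatives, genes called lower and higher ranged from 8 to 924 and 0 to 521 for genotype in unstimulated cells, 0 to 551 and 0 to 251 in stimulated cells, 0 to 17 and 0 to 179 for the difference, 580 to 2746 and 344 to 2319 for stimulation in WT, and 872 to 2224 and 880 to 2125 in labelled DKO cells, against 517 and 213, 17 and 25, 0 and 0, 2013 and 1580, and 1855 and 1997. Upper-quartile scaling moved the median of all genes from 0.01 to -0.12 for stimulation in WT and from -0.03 to -0.14 in labelled DKO cells. Same-numbered libraries correlated at 0.17 and 0.26 in their deviations, but the labels do not say that numbers pair samples. With the replicate block, 202 genes were lower and 191 higher in stimulated cells, with 0 members called, and 2224 and 1870 with stimulation in labelled DKO cells, with the same 4 members called. The unstimulated groups share no numbers. A library left out leaves a lone library assumed to vary like the others.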
